A study of Homo sapiens with 2 samples.

Results

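MiR-106b, miR-93 and miR-25 are 3 microRNAs (miRNAs) encoded in the MCM7 gene, and their levels were read from 3 of 365 miRNA assays on a quantitative PCR card. They were chosen by name, as the assays called miR-106b, miR-93 or miR-25 once the hsa- prefix and the assay number were dropped, and each name stood on 1 assay. The study compared CL1-5, an invasive human lung adenocarcinoma line, carrying the empty vector pcDNA3.1 (the control) with the same line overexpressing ANGPTL1, a protein of the angiopoietin-like family that cells secrete. Both were, per the labels' protocols, stable lines kept under the antibiotic G418 for 4 weeks, and 500 ng of total RNA from each went into multiplexed reverse transcription and PCR of 40 cycles. There was 1 sample per group, so no difference below carries an error or a test, and each is a comparison of 2 RNA samples, not of the conditions. Whether either line was a clone or a pool is not given in the sources used here, and neither ANGPTL1 nor the MCM7 transcript was measured on the card.

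The 3 hairpins lie in an intron of MCM7, which encodes a subunit of the replicative helicase, and they are cut from the same transcript as the helicase message. The transcription factor E2F1 drives MCM7 as cells enter S phase, and these miRNAs are known to repress E2F1 in turn, as well as the cell cycle inhibitor CDKN1A (p21) and the pro-apoptotic protein BCL2L11 (BIM). A miRNA finds its targets mainly through its seed, bases 2 to 8 from its 5′ end. The cluster is a paralog of the miR-17 to miR-92 cluster, so other loci make miRNAs with the same seeds.

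In RefSeq (GRCh38.p14), MCM7 spans chr7:100092728-100101397, and all 3 hairpins lie inside that span on the minus strand. MIR106B is at chr7:100093993-100094074, MIR93 at chr7:100093768-100093847 and MIR25 at chr7:100093560-100093643, so they follow each other in that order along the transcript, with 145 and 124 bases between them. The mature miRNAs are shown to set out which of them share a seed, with the seed in capitals. The assay names give no arm, and the arm shown is the one that the plain name has usually meant, the 5′ arm for miR-106b and miR-93 and the 3′ arm for miR-25.
miR-106b: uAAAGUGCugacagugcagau
miR-93: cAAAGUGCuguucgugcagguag
miR-25: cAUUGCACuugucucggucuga
MiR-106b and miR-93 thus have 1 seed, AAAGUGC, and miR-25 has another, AUUGCAC. The seed of miR-106b and miR-93 occurs in 8 of 2370 human mature miRNA names in RefSeq (0.338%), and that of miR-25 in 6 (0.253%).

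The hairpins show where each mature miRNA, in capitals, is cut from. RefSeq sequences are printed for MIR106B and MIR25.
MIR106B: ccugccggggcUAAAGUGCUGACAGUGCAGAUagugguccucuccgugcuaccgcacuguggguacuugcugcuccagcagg
MIR25: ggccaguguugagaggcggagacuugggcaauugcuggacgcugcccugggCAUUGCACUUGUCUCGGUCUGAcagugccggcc
In MIR106B the mature miRNA takes bases 12 to 32 of 82, ahead of the loop, and in MIR25 bases 52 to 73 of 84, behind it.

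All 3 miRNAs were later in ANGPTL1 cells than in the control. They were later by more than the reference RNA RNU48 was, and so scarcer relative to it. Levels were read as the threshold cycle (Ct), the PCR cycle in which the fluorescence first passes a fixed threshold. A Ct lower by 1 cycle stands for about 2 times the template if each cycle doubles it. MiR-93, the earliest of them, crossed at cycle 22.20 in control cells and 23.82 in cells with ANGPTL1. MiR-106b crossed at 24.25 and 25.01, and miR-25 at 26.48 and 27.52. RNU48, the small nucleolar RNA that served as the reference, crossed at 20.79 and 21.21, which is 0.42 cycles later in ANGPTL1 cells. The 3 miRNAs were later by 1.62, 0.76 and 1.04 cycles, so each moved further than RNU48 did. All 6 cycles were well ahead of 35, the cycle below which a miRNA was counted as detected: the margin ran from 7.48 cycles for miR-25 in ANGPTL1 cells to 12.80 for miR-93 in the control.

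**Figure D1:**
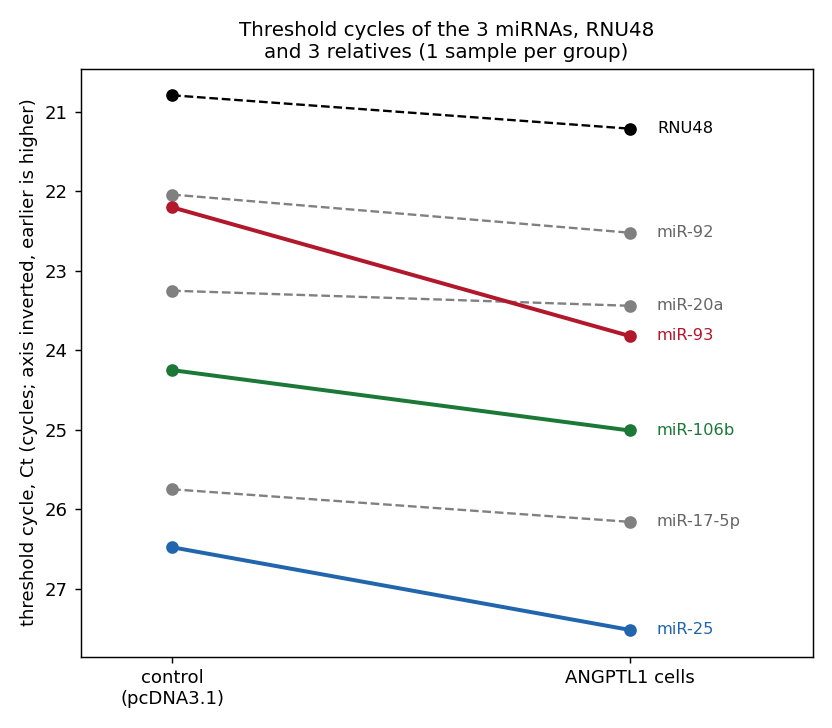
Threshold cycles (vertical axis, in cycles, inverted so that earlier stands higher) in the control and in ANGPTL1 cells for miR-93, miR-106b and miR-25 (coloured), RNU48 (black) and 3 relatives from the miR-17 to miR-92 cluster (grey); each point is 1 sample. MiR-93 is earlier than miR-20a in the control, at 22.20 against 23.25, and later in ANGPTL1 cells, at 23.82 against 23.44.

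Relative to RNU48, miR-93 differed most between the samples. Its delta Ct, the cycles by which it trails RNU48, was 1.41 in control and 2.61 in ANGPTL1 cells, which gives a log2 ratio of -1.20 (delta Ct of the control minus that of ANGPTL1 cells, so that negative means lower in ANGPTL1 cells). For miR-25 delta Ct was 5.69 and 6.31, a log2 ratio of -0.62. For miR-106b it was 3.46 and 3.80, a log2 ratio of -0.34. As folds, miR-93 was 2.30-fold lower in ANGPTL1 cells, miR-25 1.54-fold and miR-106b 1.27-fold. In the authors' deposited table the fold changes of ANGPTL1 cells over control were 0.435 for miR-93, 0.651 for miR-25 and 0.790 for miR-106b, and they rest on the same cycles.

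Only miR-93 of the 3 passed the 2-fold size used here to count a miRNA as lower. The share past that size among all 145 miRNAs detected in both samples was 4.83%. At a 1.5-fold size miR-93 and miR-25 passed, 2 of the 3 members, against 19.3% of all. The median log2 ratio of the 3 was -0.62, and that of the 145 was -0.01. All 3 were below 0, as were 73 of the 145 (50.3%). Ordered from the most negative log2 ratio, miR-93 was number 4 of 145, miR-25 number 22 and miR-106b number 42. These differences depend on the reference. With miR-16 as reference, which itself was later by 0.78 cycles, miR-106b stood at 0.02, miR-25 at -0.26 and miR-93 at -0.84. None of the 3 then passed 2-fold, and the share of all 145 was not computed with that reference. Without a reference they stood at -0.76, -1.04 and -1.62, and 2 of the 3 passed 2-fold, beside 20% of all.

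**Figure D2:**
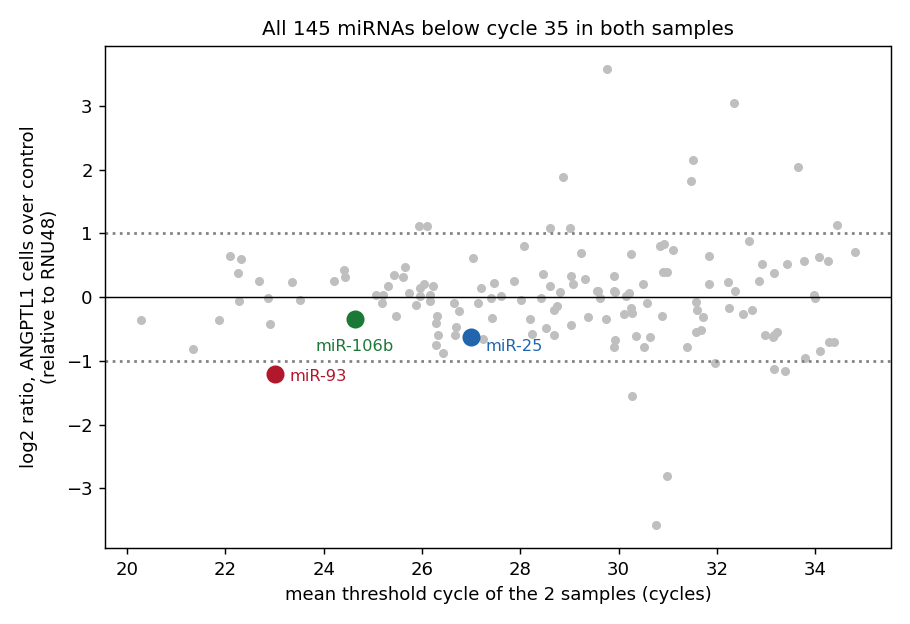
Log2 ratio of ANGPTL1 cells over control relative to RNU48 (vertical axis) against the mean threshold cycle of the 2 samples (horizontal axis, in cycles) for the 145 miRNAs below cycle 35 in both; dotted lines mark 2-fold. MiR-93, at -1.20, lies below the lower line at the early end of the card, among miRNAs of like cycle the lowest; miR-25 and miR-106b lie between the lines.

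Set beside miRNAs of similar abundance, miR-93 was the lowest of its neighbourhood. Of 11 other miRNAs whose control cycle lay within 1.5 cycles of it, all had a higher log2 ratio, from -0.81 to 0.65 with a median of -0.01. Around miR-106b, 16 of 17 such miRNAs were higher and miR-9 was lower. Around miR-25, 34 of 37 were higher, and the 3 lower were miR-331, miR-565 and an assay named miR-9. Most miRNAs of the whole card were higher as well. From the most negative log2 ratio of all 145 detected, miR-93 was number 4, miR-106b number 42 and miR-25 number 22. The counts among miRNAs of like cycle in part restate those ranks. The miRNAs nearest to each member in both cycles at once (the distance in the plane of the 2 Ct values, over 2 samples) were miR-21, 0.57 cycles from miR-93, then miR-19b at 0.87 and miR-29a at 1.09. For miR-106b they were miR-15b at 0.54, miR-125b at 0.63 and miR-30c at 0.66, and for miR-25 miR-331 at 0.35, let-7g at 0.41 and miR-660 at 0.44. In the same order, the log2 ratios were -0.42, -0.01 and -0.05 for the neighbours of miR-93, and 0.32, 0.43 and 0.03 for those of miR-106b. For those of miR-25 they were -0.65, -0.09 and -0.22. A neighbour chosen by both cycles tends by that choice to have a similar log2 ratio, so the likeness of miR-331 and miR-25 is no separate result.

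The order of the 3 by cycle was the same in both samples, with miR-93 first, miR-106b next and miR-25 last. The order does not follow that of the hairpins along the transcript, where MIR106B comes first. How efficiently each assay copies its target is not given in the sources used here, so an order of cycles need not be an order of molecules, whereas the change of a gap between samples uses each assay against itself. The gap from miR-93 to miR-106b was 2.05 cycles in the control and 1.19 in ANGPTL1 cells, narrower by 0.86. From miR-106b to miR-25 it was 2.23 and 2.51, wider by 0.28, and from miR-93 to miR-25 it was 4.28 and 3.70, narrower by 0.58. These changes need no reference RNA, because RNU48 cancels within a sample. If each cycle doubled every template alike, miR-93 would be 4.14-fold above miR-106b in the control and 2.28-fold in ANGPTL1 cells, and 19.4-fold and 13.0-fold above miR-25. On the same assumption miR-93 made up 77.3% of the summed level of the 3 in the control and 66.0% in ANGPTL1 cells, miR-106b 18.7% and 28.9%, and miR-25 3.98% and 5.08%. The summed level was 0.487 relative to RNU48 in the control and 0.248 in ANGPTL1 cells, 1.96-fold lower, and most of that difference was in miR-93, whose level was 0.376 and 0.164.

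Among all 365 miRNA assays, miR-93 was 5th by cycle in the control, level with miR-100, and 13th in ANGPTL1 cells. The 8 that went ahead of it, named after their values were seen, were miR-100, miR-24, miR-99a, miR-21, miR-221, miR-19b, miR-20a and miR-29a. MiR-106b went from 15th to 17th, as miR-15b and miR-125b went ahead, and miR-25 from 45th to 48th, as let-7g, miR-365 and miR-30d did. No miRNA fell behind any of the 3. These ranks, too, are free of the reference.

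The 5 detected miRNAs that have these seeds but come from other loci had log2 ratios from -0.06 to 0.40, all above those of the MCM7 products. Most of the 145 detected miRNAs were above them too, as miR-106b, the highest MCM7 product, was number 42 from the most negative. Of the seed of miR-106b and miR-93, 4 of 5 listed relatives were on the card and 3 were detected. MiR-106a, the other listed relative, had no assay of that name on the card. Their mature sequences, shown because the seed is common to all and the rest differs, are from the miR-17 to miR-92 cluster on chromosome 13 (miR-17-5p and miR-20a) and from its X chromosome paralog (miR-20b).
miR-17-5p: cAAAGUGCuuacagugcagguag
miR-20a: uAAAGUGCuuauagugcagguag
miR-20b: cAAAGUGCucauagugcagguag
MiR-20a crossed at cycle 23.25 in control and 23.44 in ANGPTL1 cells, with a log2 ratio of 0.23. MiR-17-5p crossed at 25.75 and 26.16 (0.01), and miR-20b at 29.25 and 29.39 (0.28). All 3 lay above miR-93 and miR-106b. None of them was at least 2-fold lower, which for so few is near the 4.83% of all 145 detected miRNAs that were. Their median was 0.23 relative to RNU48 and -0.19 without a reference, where the medians of all 145 miRNAs were -0.01 and -0.43. MiR-519d stood at cycle 40, the last one, in both samples. The whole of miR-93 is 3 edits (changed, added or lost bases) from miR-17-5p and from miR-20b, 4 from miR-20a and 7 from miR-106b, and whether the assays read each other's sequences was not tested.

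Among the measured miRNAs with this seed, which do not include miR-106a, the earliest was miR-93 in the control and miR-20a in ANGPTL1 cells. MiR-93 was ahead of miR-20a by 1.05 cycles in the control and behind it by 0.38 in ANGPTL1 cells, a change of 1.43 cycles that needs no reference. MiR-106b stayed behind miR-20a, by 1.0 and 1.57 cycles, and ahead of miR-17-5p, by 1.5 and 1.15. If all assays were equally efficient, the summed level of the 5 detected miRNAs with this seed was 0.684 relative to RNU48 in the control and 0.485 in ANGPTL1 cells, 1.41-fold lower. Within that sum, the 2 MCM7 products together held 68.3% in the control and 48.6% in ANGPTL1 cells. MiR-93 alone held 55.0% and 33.8%, and miR-20a held 26.6% and 44.0%.

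**Figure D3:**
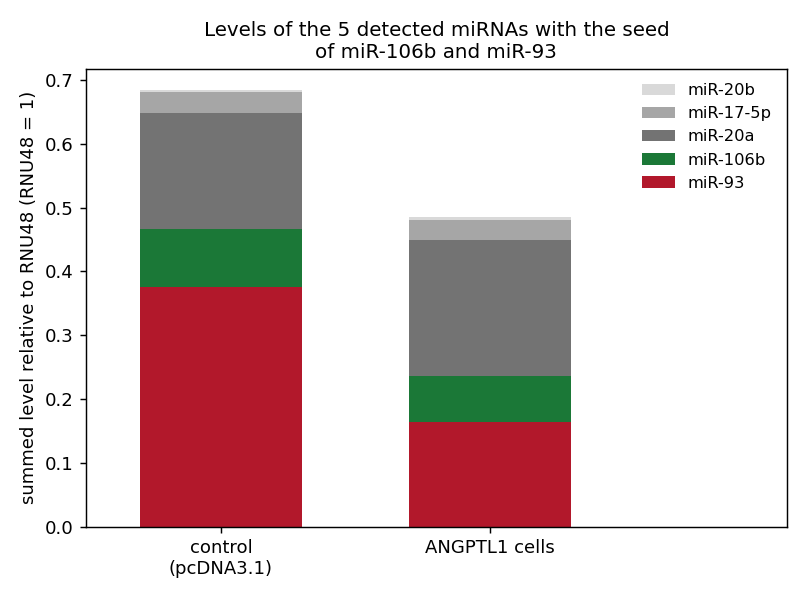
Levels relative to RNU48 (vertical axis, RNU48 = 1, assuming equal assay efficiency) of the 5 detected miRNAs with the seed of miR-106b and miR-93, stacked for the 1 control and the 1 ANGPTL1 sample. The sum is 0.684 in the control and 0.485 in ANGPTL1 cells, with the miR-93 part going from 0.376 to 0.164 and the miR-20a part from 0.182 to 0.213.

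For the seed of miR-25, 4 of 5 listed relatives were on the card and 2 were detected, miR-92 and miR-32. RefSeq now names miR-92 as miR-92a and places it both in the miR-17 to miR-92 cluster and on the X chromosome, and miR-32 lies on chromosome 9.
miR-92: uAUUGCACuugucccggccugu
miR-32: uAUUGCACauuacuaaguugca
MiR-92 crossed at cycle 22.04 in control and 22.52 in ANGPTL1 cells, with a log2 ratio of -0.06. MiR-32 crossed at 30.96 and 30.99, with a log2 ratio of 0.40. MiR-25, at -0.62, was thus below both. MiR-25 trailed miR-92, from which it is 4 edits away, by 4.44 cycles in control and 5.00 in ANGPTL1 cells. It led miR-32 by 4.48 and 3.47. On equal efficiency miR-25 was 4.40% of the summed level of the 3 in control and 3.02% in ANGPTL1 cells. The sum, most of it miR-92, was 0.441 and 0.417. MiR-363 (35.74 in control, 40 in ANGPTL1 cells) and miR-367 (40 in both) were not detected. The shifted AAGUGC seed family (miR-302, miR-372, miR-373 and miR-520 members, known from stem cells and placenta) had 15 assays. Of these, 0 were detected in both samples, beside 145 of all 365 miRNA assays on the card. An assay named miR-302c was at 34.87 in control and 40 in ANGPTL1 cells.

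**Figure D4:**
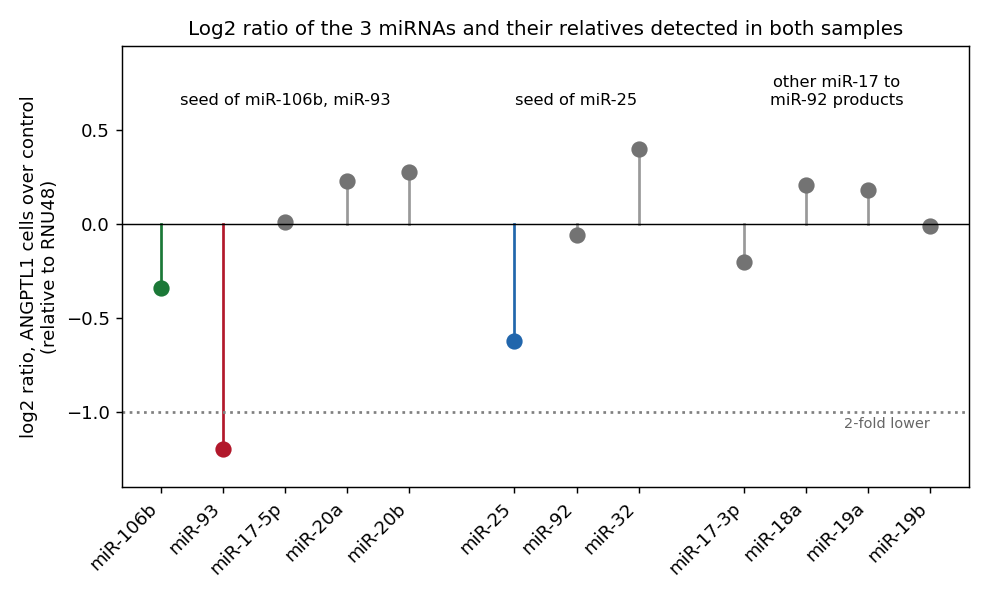
Log2 ratio of ANGPTL1 cells over control relative to RNU48 (vertical axis) for the 3 MCM7 products (coloured) and detected relatives (grey), grouped by seed, with the other products of the miR-17 to miR-92 cluster at the right; each point compares 1 sample with 1 sample and the dotted line marks 2-fold lower. The MCM7 products lie at -0.34, -1.20 and -0.62, and the grey points between -0.20 and 0.40.

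In the paralogous miR-17 to miR-92 cluster, 7 of 7 measured products were detected, with a median log2 ratio of 0.01 and a range from -0.20 (miR-17-3p) to 0.23 (miR-20a). The remaining products were miR-18a at 0.21, miR-19a at 0.18 and miR-19b at -0.01. All 7 were above the highest of the MCM7 products, miR-106b at -0.34. So were most of the 145 detected miRNAs, among which miR-106b was number 42 from the most negative. In the X chromosome paralog, 3 of 5 measured products were detected, at a median of -0.01, and 2 of them, miR-19b and miR-92, are also made by the cluster on chromosome 13.

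The 3 MCM7 products also parted further from each other than the products of most other clusters did. Their log2 ratios spanned 0.86, or 1.82-fold, from miR-93 to miR-106b. Of 20 other clusters listed, 15 had at least 2 members detected in both samples, with a median range of 0.43. In 13 of these the range was smaller, from 0.22 in the miR-99b cluster to 0.68 for miR-15b and miR-16. In 2 it was larger: 1.22 for miR-424 (-0.51) and miR-503 (0.71), and 1.20 for miR-183 (-1.55) and an assay named miR-182 (-0.35). Another assay named miR-182 stood at 40 in both samples. MiR-96 of the same cluster, at 34.03 in control and 36.00 in ANGPTL1 cells, was not counted. MiR-503 was near the limit of detection, at cycles 34.95 (control) and 34.66 (ANGPTL1 cells). A range grows with the number of members. Among the 6 clusters as listed with at least 3 detected members all had a smaller range, up to 0.55 for let-7a, let-7d and let-7f. The cluster of miR-191 (-0.09) was counted with the assay named miR-425 (0.33) but without one named miR-425-5p (-0.58). With both counted, it would have at least 3 detected members and a wider range than the MCM7 products. Some clusters share a member, such as miR-16 or miR-24, whose copies the card cannot tell apart.

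**Figure D5:**
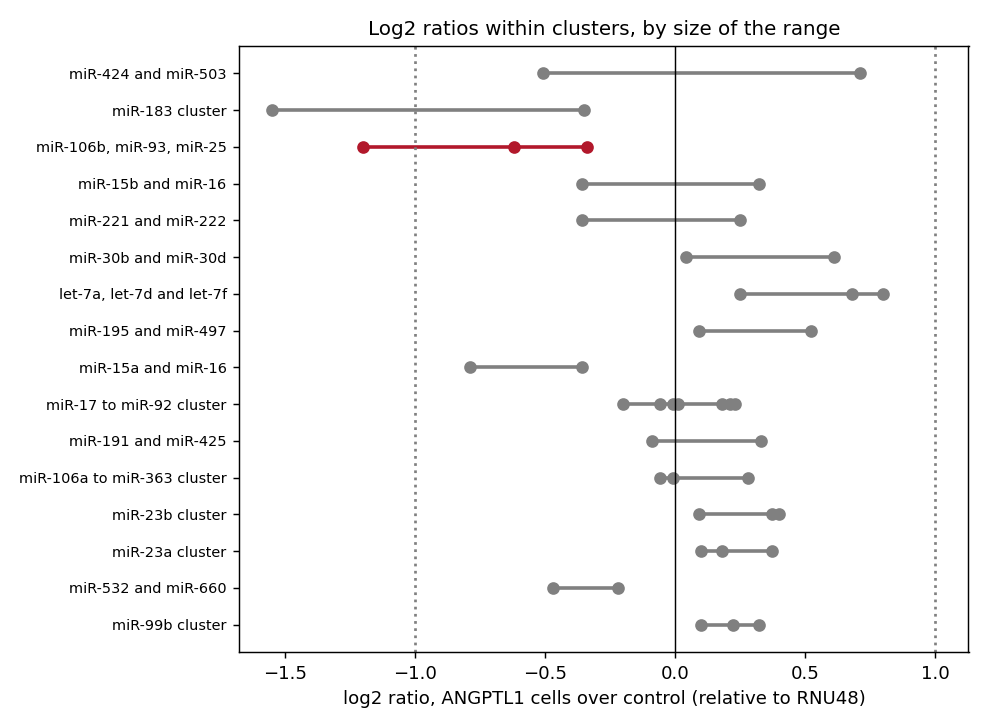
Log2 ratio of ANGPTL1 cells over control relative to RNU48 (horizontal axis) of each detected member (points) of 16 clusters, ordered by the range between the ends (bars); dotted lines mark 2-fold. The MCM7 cluster (red) spans 0.86, behind only miR-424 with miR-503 and the miR-183 cluster. It lies wholly below 0, as do the miR-183 cluster, miR-15a with miR-16, and miR-532 with miR-660.

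The MCM7 miRNAs are also abundant in maturing red cells, so miRNAs of blood cells were set beside them. Of 7 listed, 5 were on the card and 1, miR-486, was detected in both samples, at cycles 28.75 (control) and 32.75 (ANGPTL1 cells). Its log2 ratio was -3.58, further below 0 than that of any MCM7 product. MiR-142-3p was below cycle 35 only in the control, at 34.51 against 37.19. The defining red-cell miRNA miR-451 was undetected in both, at 38.50 and 36.83, as were miR-223 at 35.58 and 40 and miR-142-5p at 38.73 and 36.30. The summed level of the 5 relative to RNU48 was 4.13e-03 in the control and 4.02e-04 in ANGPTL1 cells, most of it miR-486 in both, beside 0.487 and 0.248 for the 3 MCM7 products. The part of such cells in the differences was not tested. Of the epithelial markers, 1 of 6 assays, miR-200c, was detected in both samples, at 32.16 and 30.77. MiR-141 stood at 40 and 35.40, and the others were later than 35. Most epithelial assays were thus undetected, but so were most assays of the card, where 145 of 365 were detected in both samples. The counts of every marker list here are to be read beside that share. Markers detected in both samples numbered 1 of 4 assays for muscle, 0 of 1 for liver, 2 of 3 for neurons (both named miR-9) and 1 of 5 for fibroblasts. These 4 assays were lower in ANGPTL1 cells, as the MCM7 products and 50.3% of all 145 detected miRNAs were. Their log2 ratios were -0.55 for miR-133b (muscle), -0.75 and -0.63 for the assays named miR-9 and -0.70 for an assay named miR-199a (fibroblasts). Those of miR-9 and miR-199a were larger in size than that of miR-25 (-0.62), and all 4 larger than that of miR-106b (-0.34). That of miR-199a came from cycles 33.83 (control) and 34.95 (ANGPTL1 cells), near the limit of detection. The other assay named miR-199a stood at 40 in both samples. The epithelial miR-200c was higher, at 1.82. The summed levels relative to RNU48, control first, were 2.59e-04 and 2.40e-04 for muscle, 3.48e-02 and 2.08e-02 for neurons, and 1.55e-04 and 1.08e-04 for fibroblasts. For liver, whose 1 assay was undetected, they were 1.65e-06 and 3.89e-05, so higher in ANGPTL1 cells. Other defining markers, miR-206 of muscle, miR-124a of neurons and miR-143 and miR-145 of fibroblasts, stood at cycle 40 in both samples. Some undetected markers were earlier in ANGPTL1 cells: miR-1 (40 in control, 35.35 in ANGPTL1 cells) and miR-133a (40, 38.04) of muscle, and miR-122a (40, 35.87) of liver. MiR-214 of fibroblasts, also undetected, was later (35.77, 36.32). The part of these cell types in the differences of the MCM7 products was not tested.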

How the data were processed

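Mature miRNAs were measured by TaqMan reverse-transcription PCR in 1 control and 1 ANGPTL1 sample. The authors deposited average threshold cycles, delta Ct values against RNU48 (both on an inverted log2 scale, per the file headers) and a fold change ratio. Deposited delta Ct differed from the deposited cycles minus RNU48 by at most 0.01. The sources used here do not state how many wells were averaged, their spread, the threshold or the software. No count depth exists for PCR, so precision is unknown.

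With Python 3.11.15, log2 ratios, gaps, ranks, ranges and levels (2 to the power of minus delta Ct) were computed. Ratios were counted only below cycle 35 in both samples. The formula of the ratio returned known shifts put into the control cycles without noise, which checks its arithmetic only. Alternatives were other references, detection limits of 32 and 38, size rules of 1.5 and 4, and amplification of 1.9 or 1.8 per cycle. Sequences came from RefSeq tables of GRCh38.p14, where 11 of 11 miRNAs looked up were matched. Named were the members, detected relatives by seed or paralog cluster, the 3 nearest assays to each member, references and the ends of printed ranges. The members and lists were chosen with earlier results of these data known, and miRNAs that changed rank or were lower among like cycles were named after their values were seen.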

Additional observations from a re-analysis of the deposited data

How the results depend on the processing

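The log2 ratios of miR-106b, miR-93 and miR-25 were -0.76, -1.62 and -1.04 without a reference and -0.81, -1.67 and -1.09 with the median cycle of detected miRNAs as reference, and 2 of the 3 were then at least 2-fold lower. With miR-16 as reference they were 0.02, -0.84 and -0.26, so miR-106b changed sign and 0 passed. They moved by at most 0.02 with RNU48 recomputed, with the mean cycle, with miR-103 and miR-191, with the authors' fold change, or with the median difference over miRNAs, the last added after the data were seen. At 1.8 per cycle miR-93 stood at -1.02 and the range over the 3 was 0.73. A 1.5-fold size gave 2 members, beside 19.3% of all, and a 4-fold size 0. The share of all was not computed at 4-fold or with miR-16 as reference. The share of all detected miRNAs at least 2-fold lower was 1.87% below cycle 32, 20% without a reference and 21.4% with the median cycle. Clusters with a smaller range numbered 12 of 13 below cycle 32 and 14 of 16 below 38. Without a reference the medians of relatives turned negative, at -0.19 (seed of miR-106b and miR-93), -0.26 (seed of miR-25) and -0.41 (miR-17 to miR-92 cluster), as all ratios were lower by about 0.42. Leaving out a replicate was not possible, and no paired analysis was possible because both groups hold a single sample.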
